A study of Mus musculus with 9 samples.

Results

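The genes of the adrenomedullin and calcitonin gene-related peptide (CGRP) system were examined in bulk RNA-Seq of retinas from 9 mice. The set held 8 genes, found by their symbols among the 54532 genes of the count table, and it was selected on readout values of Adm and Calca in these same mice. For that reason Adm and Calca are described without a test. Of the other 6 genes, 5 had enough counts to be tested within the whole table. The mice were wild-type C57BL/6 animals at postnatal day (P) 17, with 3 mice in each of 3 groups. Control mice stayed in room air, and their treatment label names DMSO. The OIR mice went through oxygen-induced retinopathy, in which pups kept in high oxygen lose retinal capillaries and, after return to room air, develop ischemia and pathological retinal neovascularization (NV). They received DMSO, the vehicle, at P12. The OIR+32-134D mice went through the same exposure and received 1 intraocular injection of 32-134D, which inhibits HIF-1 and HIF-2, the transcription factors that hypoxia induces, at P12 (70 ng/µl in the protocol, 70 ng in the treatment label). A label repeats this injection for every sample, controls included, so group membership was taken from the treatment label. The label numbers of the mice were 1, 6, and 7 in the control group, 3, 5, and 6 in the OIR group, and 2, 5, and 10 in the OIR+32-134D group. These are separate animals and the numbers do not pair them.

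Adrenomedullin (Adm), adrenomedullin 2 (Adm2, also called intermedin), and the α and β forms of CGRP (Calca and Calcb) are related secreted peptides that widen blood vessels. They share a G protein-coupled receptor, the calcitonin receptor-like receptor (Calcrl), which reaches the cell surface with 1 of 3 receptor activity-modifying proteins (RAMPs). With RAMP1 the receptor prefers CGRP, and with RAMP2 or RAMP3 it prefers adrenomedullin. Adrenomedullin is a classical product of hypoxic cells, endothelial cells carry Calcrl with Ramp2, and CGRP is best known from sensory nerve fibers. The receptor acts mainly through the stimulatory G protein and cyclic AMP.

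Stretches of DNA upstream of 3 of the genes are printed because they hold the short letter runs searched for here, the core letters of HIF-binding sites and of cyclic AMP response elements. The 250 bases before the RefSeq start (GRCm38.p6) were available for 6 of the 8 genes, with Ramp2 and Calcb not matched. Capitals mark GCGTG or its reverse complement CACGC in Adm (chr7:110627407-110627656, plus strand) and Ramp3 (chr11:6658283-6658532, plus strand). In Calca (chr7:114636358-114636607, minus strand) they mark TGACG or its reverse complement CGTCA.
Adm: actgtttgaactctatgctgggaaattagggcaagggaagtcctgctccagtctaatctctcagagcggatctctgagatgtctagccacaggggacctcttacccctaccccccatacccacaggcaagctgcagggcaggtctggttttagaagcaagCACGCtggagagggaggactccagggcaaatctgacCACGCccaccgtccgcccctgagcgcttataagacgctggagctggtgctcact
Ramp3: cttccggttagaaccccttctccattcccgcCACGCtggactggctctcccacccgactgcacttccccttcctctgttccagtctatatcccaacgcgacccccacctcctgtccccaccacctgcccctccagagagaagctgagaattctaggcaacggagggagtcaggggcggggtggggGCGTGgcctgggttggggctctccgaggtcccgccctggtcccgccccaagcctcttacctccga
Calca: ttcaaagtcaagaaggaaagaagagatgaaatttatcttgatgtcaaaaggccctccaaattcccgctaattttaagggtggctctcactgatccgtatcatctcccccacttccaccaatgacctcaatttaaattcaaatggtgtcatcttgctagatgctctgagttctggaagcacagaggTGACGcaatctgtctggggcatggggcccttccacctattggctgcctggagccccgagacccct
Both strands were searched. GCGTG was found in 2 of the 6 windows, with its first base 90 and 54 bases before the start of Adm and 219 and 65 bases before that of Ramp3, and in 28.2% of all 32851 such windows of the table. ACGTG, the other form of the HIF core, was in 0 of the 6 and in 16.6% of all. TGACG was in 1 of the 6, at 65 bases before the start of Calca, and in 17.8% of all, while the longer palindrome TGACGTCA, which contains it, was in 0 of the 6 and in 1.5% of all. These are matches of letters, not measured binding sites.

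Total counts per mouse ran from 16028731 to 27213184. OIR+32-134D mouse 2 stood apart, with 15.8% of its counts in crystallin genes of the lens against at most 0.184% in any other mouse, and it had the lowest summed level of ganglion cell markers. Values that rest on it are therefore given with and without it. By Xist and Y chromosome genes, 1 control, 1 OIR, and 2 OIR+32-134D mice were female. The 5 rod markers, which define retina, summed to 33360 to 64660 CPM over the mice. CPM is a count per 1000000 counts of the library, with library sizes scaled by TMM. Of the 8 genes, 7 passed the filter on low counts, and Calcb did not.

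Adm was higher in both OIR groups than in control. Adm (ENSMUSG00000030790, chr7:110627661-110629820, plus strand, GRCm38) had 92, 45, and 19 counts in control mice 1, 6, and 7, which are 3.21, 2.23, and 1.23 CPM. In OIR mice 3, 5, and 6 it reached 17.3, 11.8, and 19.7 CPM, and in OIR+32-134D mice 2, 5, and 10 it reached 44.5, 20.6, and 10.8 CPM. Every OIR and every OIR+32-134D mouse was above every control mouse, while the OIR and OIR+32-134D mice overlapped. The group means were 2.22 ± 0.994, 16.3 ± 4.01, and 25.3 ± 17.3 CPM (mean ± SD, n = 3 each), so that the spread among OIR+32-134D mice was the widest of the 3 groups. The fitted log2 fold change was 2.84 (standard error 0.53) in OIR and 3.48 (standard error 0.55) in OIR+32-134D mice against the same controls. Between OIR+32-134D and OIR mice it was 0.64 (standard error 0.49), and without OIR+32-134D mouse 2 it was -0.02, with 2.79 against control. Within sex, where 1 mouse stands for a group in places, the OIR mice were higher than control by 2.39 on the log2 CPM scale in females and by 3.13 in males. The difference between OIR+32-134D and OIR was 0.81 in females and -0.49 in males. Adm overlaps the antisense gene Gm28863, which held 0 to 11 counts per mouse, and it is not stated whether counting used strand.

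Adm2 (ENSMUSG00000054136, chr15:89322720-89324731, plus strand), the closest relative of Adm in its receptor use, was near the limit of detection in most mice. It had 0, 2, and 0 counts in control mice 1, 6, and 7, then 3, 3, and 25 counts in OIR mice 3, 5, and 6, and 118, 2, and 14 counts in OIR+32-134D mice 2, 5, and 10. In CPM all OIR and OIR+32-134D mice lay above the control mice, but OIR mouse 6 held 25 of the 31 OIR counts and OIR+32-134D mouse 2 held 118 of the 134 counts of its group. Relative to library size, the summed counts were 16.0 times those of control in OIR mice (95% counting interval 4.07 to 138) and 83.7 times in OIR+32-134D mice (22.7 to 698). Without OIR mouse 6 the first ratio was 4.81 (0.859 to 48.7), and without OIR+32-134D mouse 2 the second was 14.4 (3.38 to 129). These intervals cover counting error alone and rest on 2 control counts. Against OIR mice the OIR+32-134D ratio was 5.23 (3.52 to 8.01) with all mice and 0.900 (0.460 to 1.70) without mouse 2. In the fit over all 9 mice Adm2 did not pass in any comparison (edgeR adjusted p = 0.284 for OIR and 0.167 for OIR+32-134D against control).

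Calca (ENSMUSG00000030669, chr7:114631478-114636357, minus strand) gives calcitonin or α-CGRP by alternative splicing, and its 4 distinct coding sequences in GENCODE M21 cannot be separated in counts per gene. It stood at 4.82, 3.47, and 2.39 CPM in control mice 1, 6, and 7 and at 5.45, 9.65, and 14.4 CPM in OIR mice 3, 5, and 6. In OIR+32-134D mice 2, 5, and 10 it stood at 2.60, 1.23, and 0.925 CPM, from 41, 20, and 18 counts. All OIR mice were above all control mice and above all OIR+32-134D mice, whereas OIR+32-134D mouse 2 lay within the range of control. The means were 3.56 ± 1.22, 9.82 ± 4.45, and 1.58 ± 0.893 CPM (mean ± SD, n = 3 each). The fitted log2 fold changes were 1.46 (standard error 0.47) for OIR against control, -1.18 (standard error 0.49) for OIR+32-134D against control, and -2.64 (standard error 0.50) for OIR+32-134D against OIR. The last of these lay between -3.16, without OIR+32-134D mouse 2, and -2.26, without OIR mouse 6, when each mouse was left out. Without OIR+32-134D mouse 2 the value for OIR+32-134D against control was -1.74. In females the OIR mouse exceeded the control mouse by 0.18 on the log2 CPM scale, and in males the difference was 1.99.

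Markers of sensory nerve, Müller glia, and microglia were read beside Calca. Of the 5 sensory nerve markers, Scn10a had 0 to 4 counts per mouse and Trpv1 had 0 to 10, and the summed level of the list ranged over 41.1 to 47.5 CPM in the control group, 27.2 to 49.3 CPM in the OIR group, and 39.2 to 44.5 CPM in the OIR+32-134D group. Almost all of that sum came from Tac1 and Prph, which retinal neurons express too. The 5 Müller glia markers, all present at 1 CPM or more, summed to 5521 to 5972 CPM in the control group, 6759 to 8503 CPM in the OIR group, and 3147 to 5422 CPM in the OIR+32-134D group. These ranges did not overlap and were in the order of the Calca means, but within the control and OIR+32-134D groups the mice were not in the order of their Calca values. The 5 microglia markers summed to 149, 81.2, and 39.3 CPM in control mice 1, 6, and 7, to 83.1, 110, and 161 CPM in OIR mice 3, 5, and 6, and to 52.9, 47.4, and 45.9 CPM in OIR+32-134D mice 2, 5, and 10. Within each group this sum ranked the mice in the same order as Calca, while the control and OIR ranges overlapped. The part of these cells in the Calca values was not tested, and in bulk tissue fewer cells of a type and less RNA per cell cannot be told apart.

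Calcb (ENSMUSG00000030666, chr7:114718643-114723365, plus strand), which encodes β-CGRP, lies 82285 bases from Calca. It had 4 counts in control mouse 6, 1 count in OIR mouse 5, and 0 in the other 7 mice. The sums of 4, 1, and 0 counts are too low for a fold change, and 3 counts over the OIR+32-134D group, the limit that a sum of 0 allows, are 0.0565 CPM. β-CGRP transcripts were thus not detectable as different between the groups at this depth.

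**Figure D1:**
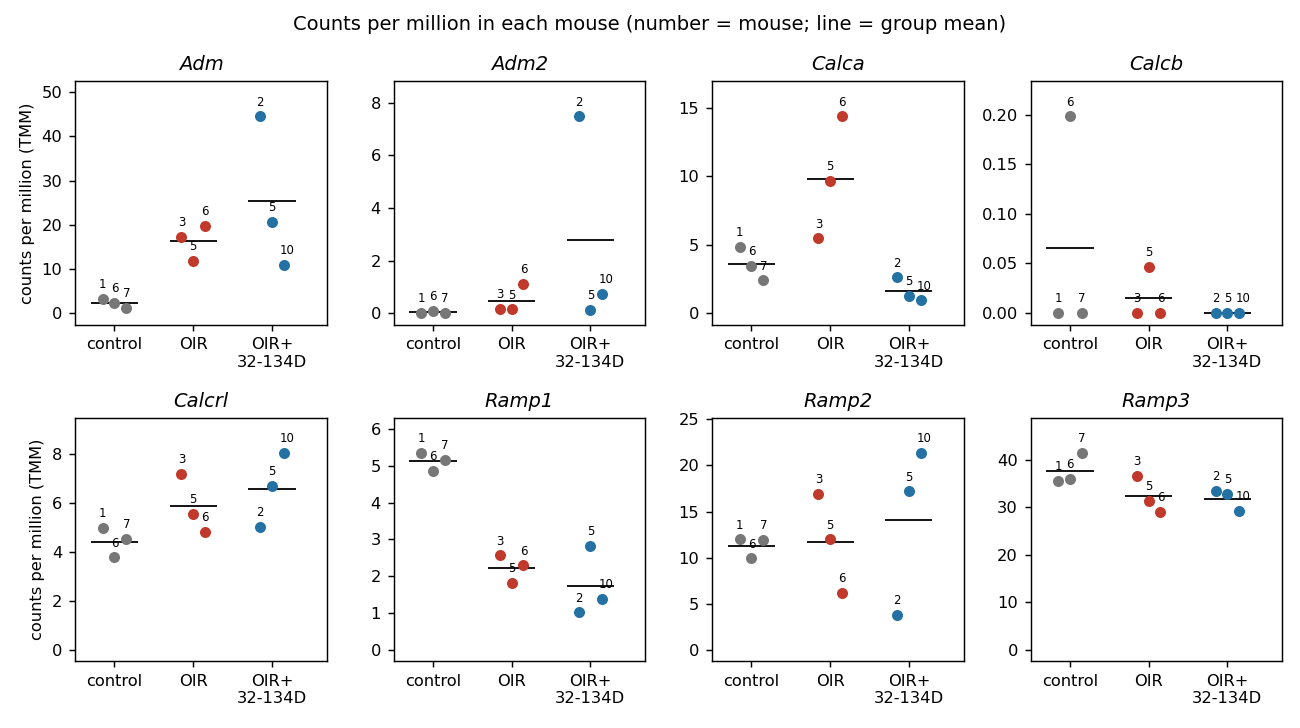
CPM (y axis, TMM scaled) of the 8 genes in each mouse, by group; each point is a mouse with its number and each line is a group mean. Adm lay above control in all OIR and OIR+32-134D mice, Calca was highest in the 3 OIR mice, and Ramp1 was lower in all OIR and OIR+32-134D mice than in any control mouse.

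The shared receptor did not pass the test in any comparison. Calcrl (ENSMUSG00000059588, chr2:84330626-84425411, minus strand) had 4.96, 3.77, and 4.51 CPM in control mice 1, 6, and 7 and 7.17, 5.55, and 4.81 CPM in OIR mice 3, 5, and 6. It had 5.01, 6.69, and 8.02 CPM in OIR+32-134D mice 2, 5, and 10. The OIR mice overlapped the control mice, and the OIR+32-134D mice lay just above them. The log2 fold change was 0.40 for OIR (95% interval -0.17 to 0.98, edgeR adjusted p = 0.366) and 0.57 for OIR+32-134D (0.00 to 1.15, adjusted p = 0.269) against control. Between OIR+32-134D and OIR it was 0.17 (-0.40 to 0.74, adjusted p = 0.9998). The intervals leave room for a difference of up to about 1 log2 unit in either OIR group against control.

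Ramp1 passed the test against control in some fits and not in others. Ramp1 (ENSMUSG00000034353, chr1:91179822-91225196, plus strand), the CGRP partner of the receptor, had 5.34, 4.86, and 5.16 CPM in control mice 1, 6, and 7. It had 2.57, 1.82, and 2.29 CPM in OIR mice 3, 5, and 6 and 1.02, 2.82, and 1.39 CPM in OIR+32-134D mice 2, 5, and 10. All 6 OIR and OIR+32-134D mice were below all control mice, whose values were close together (5.12 ± 0.246 CPM, against 2.23 ± 0.379 and 1.74 ± 0.954). The log2 fold change was -1.20 in OIR mice (standard error 0.36, 95% interval -2.02 to -0.38, edgeR adjusted p = 0.106) and -1.55 in OIR+32-134D mice (standard error 0.37, -2.39 to -0.71, adjusted p = 0.121), and neither passed over 17540 genes. With DESeq2 on the 2 groups compared both passed, at -1.21 (standard error 0.33, adjusted p = 0.003316) and -1.56 (standard error 0.45, adjusted p = 0.0322). That fit called 5.76% and 0.722% of all genes in these comparisons, where edgeR on all mice called 0.302% and 0.0171%. Over 19 alternative fits Ramp1 passed in 5 for OIR and in 3 for OIR+32-134D against control, with adjusted p from 0.003316 to 0.262 and from 0.005294 to 0.272. Shares of all genes called by the other fits are not given here, so these calls are not read as a result about Ramp1. Without OIR+32-134D mouse 2 the OIR value was -1.22 (adjusted p = 0.0344, edgeR) and the OIR+32-134D value -1.28 (adjusted p = 0.197). The direction was the same within each sex, at -1.03 in females and -1.25 in males for OIR against control on the log2 CPM scale. Between OIR+32-134D and OIR the log2 fold change was -0.35 (95% interval -1.19 to 0.49, adjusted p = 0.9998), and without mouse 2 it was -0.06.

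The summed levels of 2 lists of inner retinal neuron markers were lower in the OIR mice than in control. The 7 ganglion cell markers summed to 1337 to 1936 CPM in the control group, 132 to 654 CPM in the OIR group, and 60.1, 1074, and 1125 in OIR+32-134D mice 2, 5, and 10. The 6 amacrine markers summed to 553 to 765, 179 to 361, and 127 to 578 CPM. No single marker of either list passed the test in any comparison with edgeR. Within the OIR+32-134D group Ramp1 was 1.02 CPM in mouse 2, 2.82 CPM in mouse 5, and 1.39 CPM in mouse 10. Mouse 2 was lowest in both lists and in Ramp1. Mouse 10 had higher sums of both lists than any OIR mouse but a lower Ramp1 value than any OIR mouse. In no group were the mice in the same order in Ramp1 as in either list. The part of these cells in the Ramp1 values was not tested.

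Ramp2 (ENSMUSG00000001240, chr11:101246028-101259546, plus strand), the main endothelial partner for adrenomedullin, varied more within the groups than between them. It had 12.0, 9.91, and 11.9 CPM in control mice 1, 6, and 7, then 17.0, 12.0, and 6.21 CPM in OIR mice 3, 5, and 6, and 3.74, 17.2, and 21.3 CPM in OIR+32-134D mice 2, 5, and 10. The control mice were alike, while the values within each of the other groups spread to both sides of control. The log2 fold change was 0.05 for OIR (95% interval -1.19 to 1.29, edgeR adjusted p = 0.967) and 0.32 for OIR+32-134D (-0.92 to 1.56, adjusted p = 0.777) against control, and 0.27 (-0.97 to 1.51, adjusted p = 0.9998) between them. Its direction turned in each comparison when single mice were left out, and without OIR+32-134D mouse 2 the last was 0.75. Ramp2 shares a stretch of its strand with Vps25, which had 4 to 27 counts per mouse, so reads there could be given to either gene or dropped.

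The spread of Ramp2 went with that of endothelial transcripts. The 10 endothelial markers summed to 164, 155, and 180 CPM in control mice 1, 6, and 7, to 262, 167, and 86.3 CPM in OIR mice 3, 5, and 6, and to 102, 325, and 291 CPM in OIR+32-134D mice 2, 5, and 10. Relative to the mean of these markers, Ramp2 lay between -0.24 and 0.03 on the log2 scale in the control and OIR mice. In OIR+32-134D mice 2, 5, and 10 it lay at -0.97, -0.40, and -0.05. Calcrl relative to the same list lay between -1.53 and -1.08 in 5 of the 6 control and OIR mice and at -0.32 in OIR mouse 6, which had the fewest endothelial transcripts. In OIR+32-134D mice 2, 5, and 10 it lay at -0.60, -1.70, and -1.41. The 9 pericyte and smooth muscle markers summed to 306, 210, and 206 CPM in control mice 1, 6, and 7. They summed to 315, 220, and 115 CPM in OIR mice 3, 5, and 6 and to 172, 388, and 466 CPM in OIR+32-134D mice 2, 5, and 10. The mice were in the order of the endothelial sums within the OIR group, and not within the control or OIR+32-134D group. How far the number of vessels sets these values was not tested.

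**Figure D2:**
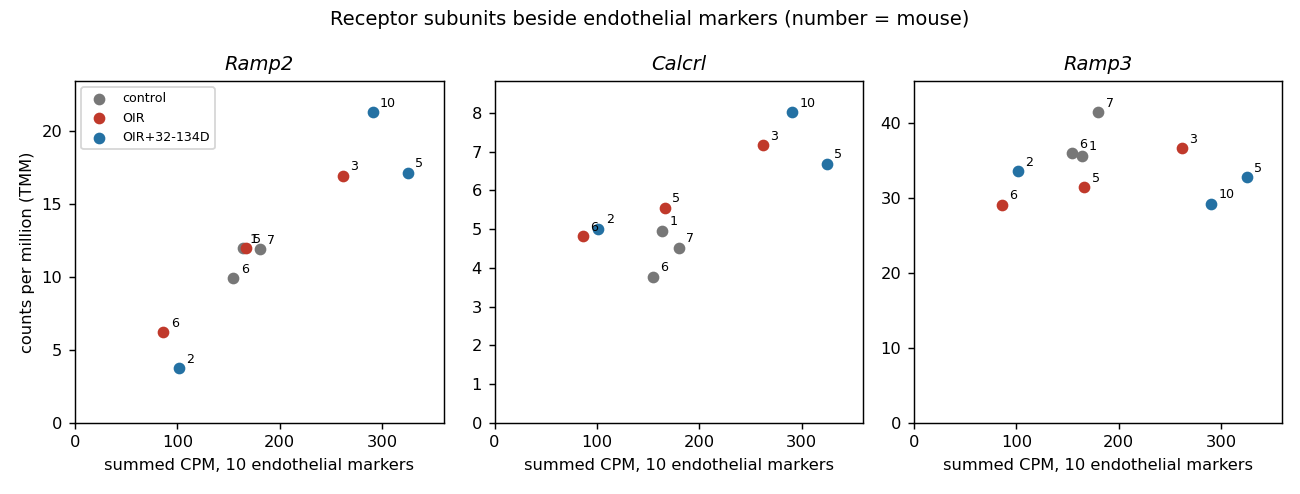
Ramp2, Calcrl, and Ramp3 (y axis, CPM) against the summed CPM of 10 endothelial markers (x axis), where each point is a mouse with its number, colored by group. Ramp2 was lowest in the mice with the fewest endothelial transcripts, OIR mouse 6 and OIR+32-134D mouse 2, whereas Ramp3 stayed between 29.1 and 41.5 CPM across the whole range.

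Ramp3 (ENSMUSG00000041046, chr11:6658521-6677475, plus strand), the other adrenomedullin partner, was the steadiest member. It had 35.6, 36.0, and 41.5 CPM in control mice 1, 6, and 7, then 36.6, 31.4, and 29.1 CPM in OIR mice 3, 5, and 6, and 33.6, 32.8, and 29.2 CPM in OIR+32-134D mice 2, 5, and 10. The OIR+32-134D mice lay below the control mice without overlap, by a small margin, and the OIR mice overlapped them. The log2 fold change was -0.22 for OIR (95% interval -0.50 to 0.06, edgeR adjusted p = 0.311) and -0.24 for OIR+32-134D (-0.52 to 0.04, adjusted p = 0.323) against control. Between OIR+32-134D and OIR it was -0.02 (-0.30 to 0.25, adjusted p = 0.9998). None of these intervals reached 1 log2 unit in either direction. Ramp3 overlaps the pseudogene Gm11978 on the other strand, which had 0 to 8 counts per mouse.

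**Figure D3:**
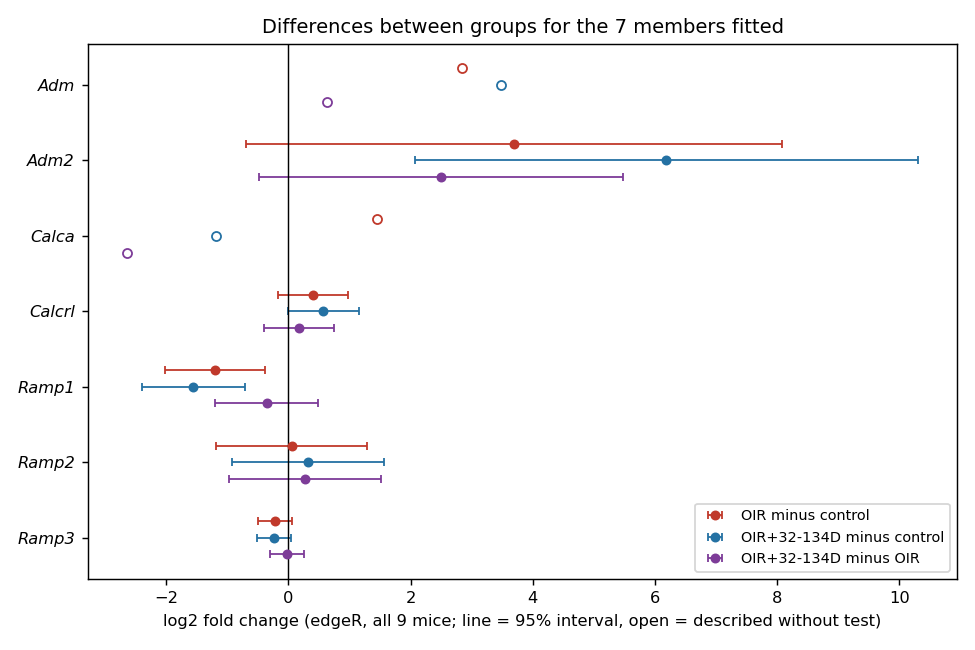
Log2 fold changes (x axis) of the 7 genes fitted with edgeR over all 9 mice in the 3 comparisons; lines are 95% intervals of the 5 genes tested, and open points are Adm and Calca, which are described without a test. Ramp3 had the narrowest intervals and Adm2 the widest, and the values of Adm2 against control rest on 2 control counts. The intervals of Ramp1 against control lay below 0 although its edgeR adjusted p was 0.106 and 0.121.

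Levels of different genes were compared after division by gene length, as CPM per kilobase. Ramp3 was the highest of the 8 genes in every group, at 27.3 in control, 23.5 in OIR, and 23.1 in OIR+32-134D mice on average. In control mice Ramp2 followed at 3.41, and Calca at 2.11, Ramp1 at 1.69, Adm at 1.37, and Calcrl at 0.904 came next, each overlapping its neighbor in this order. Adm2 and Calcb were at the bottom. In OIR mice Adm, at 10.04, was second and overlapped Calca at 5.83, which overlapped Ramp2 at 3.55, and Calcrl at 1.20 lay above Ramp1 at 0.737 without overlap. In OIR+32-134D mice Adm, at 15.6, overlapped Ramp3, and Calca, at 0.941, had dropped behind Ramp2 at 4.27, Adm2 at 2.14, and Calcrl at 1.35, though these neighbors overlapped. Adm2 owed its place there to mouse 2, whose value was 5.77 against 0.0945 in mouse 5. The overlap of Adm with Ramp3 also rested on mouse 2. Its Adm value was 27.5 against 12.7 and 6.70 in mice 5 and 10, where the lowest Ramp3 value was 21.2.

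Among the RAMPs themselves, Ramp3 held most of the transcripts and Ramp1 the fewest. The size of the shares depends on the deposited gene lengths, 3022 bases for Ramp1, 3301 for Ramp2, and 1380 for Ramp3. Not divided by length, the control means were 5.12, 11.3, and 37.7 CPM in the same order, a smaller lead for Ramp3. As a share of RAMP reads per kilobase, Ramp3 made up 82.7%, 85.0%, and 85.0% in control mice 1, 6, and 7. OIR mice 3, 5, and 6 had 81.6%, 84.3%, and 88.9%, and OIR+32-134D mice 2, 5, and 10 had 94.3%, 79.5%, and 75.4%. The Ramp1 share was 5.67%, 5.24%, and 4.83% in the control mice. It was lower in all 6 others, at 2.61%, 2.23%, and 3.20% in the OIR mice, whereas OIR+32-134D mice 2, 5, and 10 had 1.30%, 3.12%, and 1.63%. The difference from control was -2.56 percentage points in OIR and -3.22 in OIR+32-134D mice, and each had the smallest p that 3 mice against 3 allow (two-sided exact permutation test, p = 0.1, adjusted p = 0.15 over 3 comparisons and 0.45 over the 9 made for the 3 RAMPs). The design cannot reach 0.05. The Ramp1 share differed by -0.661 points between OIR+32-134D and OIR (exact permutation p = 0.3). The Ramp2 share was 9.79% to 11.6% in the control group, 7.93% to 15.8% in the OIR group, and 4.40% to 23.0% in the OIR+32-134D group, and the groups overlapped for Ramp2 and Ramp3 in every comparison (exact permutation p from 0.5 to 0.9). These are shares of transcripts in whole retina, not the makeup of the receptors on any cell.

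**Figure D4:**
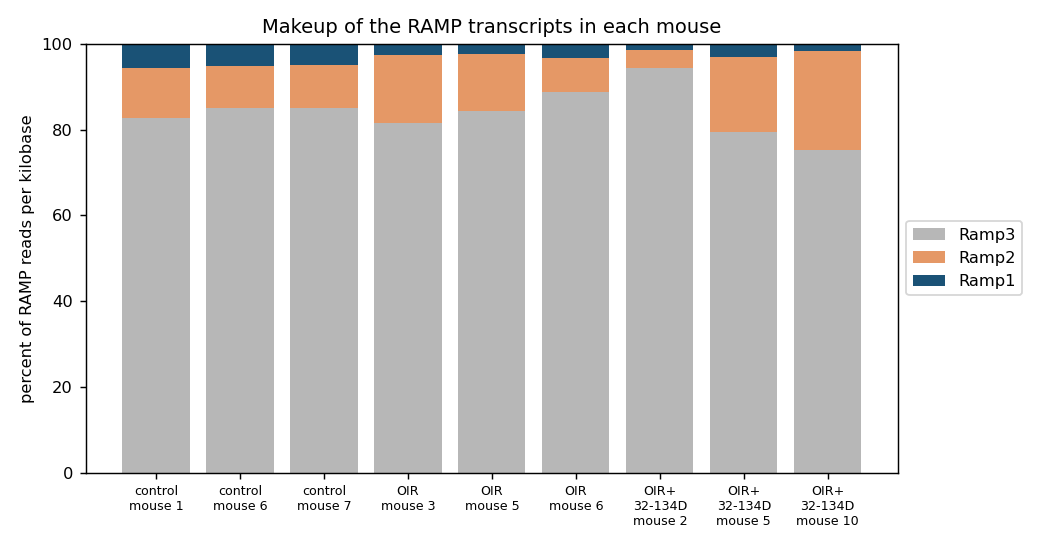
Percent of RAMP reads per kilobase (y axis) held by Ramp1, Ramp2, and Ramp3 in each of the 9 mice (bars). Ramp1, at the top of each bar, held 4.83% to 5.67% in the control mice and 1.30% to 3.20% in the other 6.

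The members' counts were set against the background of all genes. A differentially expressed gene (DEG) passed edgeR's test at an adjusted p of 0.05 and differed by more than 1 on the log2 scale. Adm and Calca, on whose values the set was selected, are left out of the counts that follow. For OIR against control 0.302% of the 17540 genes were DEGs and 0 of the 5 tested members were, while the groups did not overlap for 2 of the 5, Adm2 and Ramp1, where 33.0% of all genes did not overlap. For OIR+32-134D against control 0.0171% of genes were DEGs and 0 of the 5 members were, while 4 of the 5 did not overlap, Adm2 and Calcrl higher and Ramp1 and Ramp3 lower, against 25.0% of all genes. For OIR+32-134D against OIR 0% of genes were DEGs, and 0 of the 5 members were DEGs or did not overlap, against 9.13% of all genes that did not overlap. With edgeR 1 (Ramp1), 2 (Ramp1 and Adm2), and 0 of the 5 had an unadjusted p below 0.05 in these comparisons, where 23.8%, 18.6%, and 4.69% of all genes did. Adm2 had 0, 2, and 0 counts in the control mice and passed the low-count filter only through OIR and OIR+32-134D mice. Its separation from control and its unadjusted p are therefore descriptions and no test. DESeq2 on the 2 groups compared called 5.76%, 0.722%, and 0.307% of genes, and of the members it tested it called Ramp1 in both comparisons with control and none in OIR+32-134D against OIR. The comparisons share mice with each other and are not independent. The median log2 fold change of the 5 members was 0.05, 0.32, and 0.17, against 0.03, 0.01, and 0.01 over all genes.

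No gene of the surrounding pathway met both limits of a DEG with edgeR. A list of 48 genes covered related peptides and receptors, peptide processing and breakdown, and the cyclic AMP pathway, and 46 of them were tested. Iapp, which encodes amylin, had 0 counts, and Calcr, the calcitonin receptor, had 29 counts over the 9 mice. With edgeR 0 of the 46 were DEGs in any comparison, and 20, 13, and 3 of the 46 had an unadjusted p below 0.05 for OIR against control, OIR+32-134D against control, and OIR+32-134D against OIR, beside the 23.8%, 18.6%, and 4.69% of all genes. Their median log2 fold changes were -0.24, -0.09, and 0.07, against the 0.03, 0.01, and 0.01 of all genes, and 31, 30, and 16 of the 46 were lower. Gnas, the stimulatory G protein α subunit on which the receptor acts, had 104, 120, and 124 CPM in control mice 1, 6, and 7, 77.9, 71.4, and 80.8 CPM in OIR mice 3, 5, and 6, and 95.9, 93.8, and 93.3 CPM in OIR+32-134D mice 2, 5, and 10. The OIR mice were below all others. Groups did not overlap for 33.0% of all genes in OIR against control and for 9.13% in OIR+32-134D against OIR. The log2 fold change of Gnas in OIR against control was -0.59 (standard error 0.09, edgeR adjusted p = 0.0407), which fell short of the fold limit. Gnas was the 1 gene of the list with an adjusted p below 0.05, where 165 of the 17540 genes tested had one. Its adjusted p was below 0.05 in 10 of 19 alternative fits (1.469e-05 to 0.163) and in 2 of the 9 fits that left out a mouse, those without OIR+32-134D mouse 2 or mouse 10. Shares of all genes at that limit are not given here for those fits.

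The largest differences from control in OIR mice were in Rapgef4, a cyclic AMP-gated exchange factor (log2 fold change -1.42, standard error 0.61, adjusted p = 0.196), Prkar1b, a neuronal regulatory subunit of protein kinase A (-1.39, 0.39, 0.0918), and Pcsk1, a prohormone convertase (-1.17, 0.73, 0.361). DESeq2 on the 2 groups compared called these 3 genes of the list, where it called 5.76% of all genes. EdgeR without OIR+32-134D mouse 2 called the same 3, and its share over all genes is not given here. These calls are not read as a result about the list. The levels of these genes moved with the ganglion cell markers and the amacrine markers given above. Rapgef4 had 23.2, 26.7, and 31.5 CPM in control mice 1, 6, and 7, then 16.1, 9.28, and 5.08 CPM in OIR mice 3, 5, and 6. It had 3.36, 17.3, and 23.1 CPM in OIR+32-134D mice 2, 5, and 10. Within each group this was the order of the mice in the summed markers of both lists. Prkar1b and Pcsk1 had that order within each group as well. The part of ganglion cells and amacrine cells in these values was not tested. In OIR+32-134D against control the largest were Mme, the peptidase neprilysin (2.15, standard error 0.92, adjusted p = 0.258), Prkar1b (-0.93, adjusted p = 0.245), and Rapgef4 (-0.89, adjusted p = 0.442). Without OIR+32-134D mouse 2 the values of Prkar1b and Rapgef4 were -0.56 and -0.42. Mme had 27.6 CPM in OIR+32-134D mouse 2 and 1.50 to 4.01 CPM in the other 8 mice, and without that mouse its value was -0.06. Against OIR the largest were Mme (2.27), Adcy7, an adenylyl cyclase (-0.81), and Pcsk1 (0.63), each with an adjusted p of 0.9998. Without OIR+32-134D mouse 2 these were 0.086, -0.88, and 1.19 (adjusted p = 0.974, 0.575, and 0.199). Neither DESeq2 nor limma called a gene of the list in the 2 comparisons of OIR+32-134D mice.

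Genes whose pattern over the 9 mice was most like that of a member were ranked by Pearson's r of log2 CPM among 13977 genes with a mean of at least 1. The mice share groups and libraries, so these are descriptions. For Adm the highest were Ptgfr and AW011738 (r = 0.99), Nes, an intermediate filament gene (0.98), and Bcar3 and Zmat1 (0.97). For Calca they were Cbs (0.97), Slc15a2 and H2-Eb1 (0.95), Apoe (0.94), and Slc8b1 (0.93). Apoe is in the list of Müller glia markers above and the others are in none of the marker lists used here, so no cell type is read from them. For Ramp2 they were Nos3 and Rflnb (0.98) and Cldn5, Slc38a5, and Mmrn2 (0.97). Nos3, the endothelial nitric oxide synthase, and Cldn5, a tight junction gene, are endothelial, and Cldn5 is in the endothelial list above. For Calcrl they were Capn7 (0.97), Cd93 and Prr11 (0.96), Adora2a (0.95), and Bcl6b (0.94). Without the 2 mice farthest from the median of the member, these r were 0.945 to 0.997 for Adm, 0.86 to 0.97 for Calca, 0.87 to 0.96 for Ramp2, and 0.91 to 0.96 for Calcrl. Among the members, r was 0.62 for Calcrl with Ramp2, and without 2 mice it was 0.32 when they were chosen by Calcrl and 0.96 when they were chosen by Ramp2. It was -0.84 for Adm with Ramp1 (-0.74 without the 2 mice farthest in Adm), 0.07 for Adm with Calca (-0.10), and 0.05 for Ramp2 with Ramp3 (-0.55 without the 2 mice farthest in Ramp2).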

How the data were processed

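Total retinal RNA from 9 mice was sequenced, and each mouse is 1 replicate. The authors deposited raw counts per gene with a gene length. Their processing notes name CASAVA and HISAT without versions, and the counting tool, annotation, filters, and use of strand are not given in the sources used here. Of the table's 54532 identifiers, 54495 were in GENCODE M21 and 53548 (98.3%) had the same position there, the 8 members among them, so coordinates are on GRCm38. No mouse's counts copied another's. Totals of 16028731 to 27213184 counts keep counting error small for all members but Adm2, Calcb, and, in some mice, Adm, Calca, and Ramp1.

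Counts were fitted with edgeR 4.0.16 in R 4.3.3 (TMM, default filter by group, quasi-likelihood test, all 9 mice, 1 mean per group), with Benjamini-Hochberg adjustment over 17540 genes. DEGs passed at an adjusted p of 0.05 and differed by more than 1 on the log2 scale. The prior count of log2 CPM was 2. The members and lists were chosen with earlier results of these data known, and members were named by symbol, with pathway genes named if called or among the 3 largest changes. Genes named as called by another fit were chosen after their values were seen. Alternatives were DESeq2 1.42.0, limma 3.58.1 (voom with quality weights), other scalings and filters, edgeR on the 2 groups compared, and leaving out each mouse, and sex as a covariate was added after the data were seen. Fits were tested on simulated counts. Promoter windows came from RefSeq. Tables and figures used Python 3.11.15, pandas 2.3.3, and matplotlib 3.10.9. Protein sequences were not used here.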

Additional observations from a re-analysis of the deposited data

How the results depend on the processing

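No paired analysis was possible because the groups share fewer than 2 replicate numbers, which name separate animals. The counts of members called include Adm and Calca, on whose values the set was selected, and are no test of either; Ramp1 was the 1 other member called in any fit. For OIR against control, the count, 1 with edgeR on all mice, was 3 with DESeq2 on all 9 mice or on the 2 groups compared and 3 with limma voom, 2 with edgeR on the 2 groups, and 0 with total counts alone, with TMM without crystallin genes, and with sex as a covariate. It ranged from 0 to 3 when each mouse was left out, and the 3 were called without OIR+32-134D mouse 2. For OIR+32-134D against control the count of 0 became 2 with DESeq2 on either set of mice and with limma voom, and 1 with no filter. For OIR+32-134D against OIR it became 1 with DESeq2 on either set. The pathway count of 0 for OIR against control became 1 with DESeq2 on all 9 mice, with no filter, and with the adjusted p alone, 3 with DESeq2 or edgeR on the 2 groups, and 2 with limma voom, and was 0 to 3 with each mouse left out. Over all genes, edgeR on all mice called 0.302% and DESeq2 on the 2 groups called 5.76% for OIR against control. For OIR+32-134D against control these shares were 0.0171% and 0.722%. Shares for the other fits are not given here, so the calls are not read as results about the members or the list. The cause of the differences between fits was not tested.

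Among log2 fold changes, leaving out each mouse turned the sign of Ramp2 in OIR against control (-0.31 to 0.36), OIR+32-134D against control (-0.11 to 0.78), and OIR+32-134D against OIR (-0.16 to 0.75). It also turned Ramp3 (-0.095 to 0.076) and Adm2 (-0.14 to 4.15) in OIR+32-134D against OIR, Mme (-0.39 to 0.45) and Adcy7 (-0.38 to 0.73) in OIR against control, and Mme (-0.059 to 2.72) and Pcsk1 (-0.93 to 0.0016) in OIR+32-134D against control. Adcy7 in OIR was 0.23 with limma voom and 0.089 with sex as a covariate, against -0.07, and Mme in OIR+32-134D against control was -0.20 with limma voom, against 2.15. With counts not divided by length, the Ramp1 share differed by -4.59 points in OIR and -5.94 in OIR+32-134D mice from control. Adm, Calca, Calcrl, and Ramp1 kept their direction in every fit run, except Adm in OIR+32-134D against OIR (-0.02 to 1.001). Depth limits Adm2 and Calcb, and 3 mice per group limit the rest.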
